A study of Mus musculus with 2 samples.

Results

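*Ms4a1*, *Ms4a3*, *Ms4a4c*, *Ms4a6b* and *Ms4a6c* are 5 genes of the membrane-spanning 4A family. They were chosen by name, and all 5 were listed in both of the single-cell RNA-seq (Sc-RNA-Seq) libraries analyzed here, which together listed 7915 genes, 6001 of them in both. Each library came from bone marrow cells (BMCs) of the hind and forelimbs of C57BL6/J mice at postnatal day 21, after red blood cells had been lysed. WT is 1 library labelled wild type, with no further genotype in its label. Elsewhere the study gives its WT mice as S1P f/f. Cko is 1 library labelled S1P Cko, which the study's methods give as S1P f/f;Osx-Cre, that is, both copies of *Mbtps1* (the gene of site-1 protease) floxed at exon 2 and the Osx1-GFP::Cre transgene, whose Cre is driven by the osterix promoter. Mice with the Osx-Cre transgene alone were not part of the comparison. Since each genotype has a single library, replicate error could not be measured, no test was possible, and mouse, library and genotype cannot be told apart. Every interval given is a 95% interval that covers counting error only.

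Proteins of the MS4A family cross the membrane several times and sit in lymphoid and myeloid cells. *Ms4a1* encodes CD20, a surface protein of B cells that associates with the B cell receptor and disappears when B cells become plasma cells. *Ms4a3* encodes HTm4, which is best known from granulocyte-monocyte progenitors (GMPs) and has been tied to cell cycle control in hematopoietic cells. *Ms4a4c*, *Ms4a6b* and *Ms4a6c* belong to groups of closely related copies that expanded in the mouse, and they are known from monocytes, macrophages and, for *Ms4a6b*, T cells.

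In these BMCs the 5 genes divided among the lineages. *Ms4a1* was highest in B cells, *Ms4a3* in granulocyte progenitors, and *Ms4a4c* and *Ms4a6c* in monocytes, while *Ms4a6b* was high in monocytes and in T cells. Inside those classes the Cko library had more *Ms4a1* than the WT in B cell-like cells and about as much *Ms4a3* in GMP-like cells. Under some other groupings of the cells the *Ms4a1* ratio fell below 1.5-fold and the *Ms4a3* ratio changed direction. The Cko had less *Ms4a4c*, *Ms4a6b* and *Ms4a6c* in each of 2 monocyte clusters, which were taken singly after seeing the data. The interval of the *Ms4a6c* ratio included 1 in the cluster that was smaller in WT. With both clusters pooled, that of the *Ms4a6b* ratio included 1.

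The 5 genes lie within 391177 bases of mouse chromosome 19 (GRCm38, GENCODE vM21). *Ms4a1* lies at chr19:11249675-11266241 on the minus strand and *Ms4a3* at chr19:11629496-11640851, also on the minus strand. Between them on the plus strand are *Ms4a4c* (chr19:11404770-11427246), *Ms4a6c* (chr19:11469366-11482192) and *Ms4a6b* (chr19:11516512-11531256). The main transcript has 7 exons in 4 of them and 8 in *Ms4a6b*. Since the library is read near the 3′ end, every stretch of 98 bases in the last 500 bases of the members' transcripts was looked up in all other genes. None was shared for *Ms4a1*, *Ms4a3*, *Ms4a6b* and *Ms4a6c*, and for *Ms4a4c* 23 of 1070 such stretches also lay in *Ms4a4b*, so that a few reads of these neighbors could not be assigned to 1 of them. All but *Ms4a3* overlap a gene on the opposite strand.

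The stretch just before the start site is shown for the 4 members that have a RefSeq promoter window, because these genes differ in where they were read and 2 of them share much of this stretch. The sequences are from RefSeq (GRCm38.p6) and are written 5′ to 3′ on the strand of the gene. The windows of *Ms4a4c* and *Ms4a6b* lie inside the GENCODE spans given above, which start further upstream. All distances below are counted from the RefSeq start. The first pair ends at the base before the RefSeq start, and capitals mark the letters GGAAGT, a core to which PU.1 and other ETS factors bind:
Ms4a3 (chr19:11640852-11640951, minus strand): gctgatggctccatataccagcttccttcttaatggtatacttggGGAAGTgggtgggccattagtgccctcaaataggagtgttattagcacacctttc
Ms4a4c (chr19:11407561-11407660, plus strand): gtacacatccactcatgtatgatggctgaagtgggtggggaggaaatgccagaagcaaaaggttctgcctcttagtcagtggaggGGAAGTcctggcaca
In the second pair capitals mark the runs that *Ms4a6c* and *Ms4a6b* share letter for letter:
*Ms4a6c* (chr19:11469217-11469367, plus strand): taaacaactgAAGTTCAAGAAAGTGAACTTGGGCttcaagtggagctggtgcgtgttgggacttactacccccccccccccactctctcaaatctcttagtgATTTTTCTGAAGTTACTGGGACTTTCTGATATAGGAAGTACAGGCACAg
Ms4a6b (chr19:11518309-11518558, plus strand): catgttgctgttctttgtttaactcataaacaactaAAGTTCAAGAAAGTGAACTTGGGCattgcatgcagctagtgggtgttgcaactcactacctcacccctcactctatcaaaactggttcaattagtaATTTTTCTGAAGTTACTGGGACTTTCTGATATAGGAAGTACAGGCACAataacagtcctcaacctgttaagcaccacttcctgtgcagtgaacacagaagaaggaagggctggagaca

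The shared runs of *Ms4a6c* and *Ms4a6b* were 24 and 48 bases long, 72 bases in all. The longer run ended 2 bases before the start of *Ms4a6c* and 71 bases before that of *Ms4a6b*. No other pair of these windows had a run in common of more than 12 bases. GGAAGT or its reverse complement ACTTCC was found in all 4 windows, starting 15 bases before the start in *Ms4a4c*, 16 in *Ms4a6c*, 55 in *Ms4a3*, and 85 and 43 in *Ms4a6b*. Those letters were also in the 250 bases before the start of 5401 of 27025 genes. The C/EBP letters TTGCAAT (or ATTGCAA), found in 1.98% of all genes, and the RUNX letters AACCAC (or GTGGTT), found in 10.9%, were in none of these 4 windows. ACCACTTCC, in which the end of a RUNX core runs into an ETS core, was present in *Ms4a6b* alone of the 4 and in 0.433% of all genes. These matches are matches of letters, and no file here measured binding.

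The WT file held 6287 cell barcodes and the Cko file 3670, of which 6271 and 3662 had at least 200 genes and were kept. A kept WT cell had from 2924 to 48860 unique molecular identifiers (UMIs), with a median of 6977, and a kept Cko cell from 3162 to 51672, with a median of 7440. The libraries shared 28 barcodes. *Mbtps1* itself was read at 31.9 CPM (counts in 1000000 UMIs) in WT and 31.2 in Cko, which is no check of the genotype, because 3′ reads lie outside exon 2. *Sp7*, the gene of osterix, had 38 UMIs in WT and was not listed in Cko. Cells were clustered over both libraries without the Ms4a genes and named "-like" from marker genes that include no member. There were 21 clusters, and 10 named classes.

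Over all cells of a library, the members were read in different shares of cells. *Ms4a1* had 415 UMIs in WT and 526 in Cko, with at least 1 UMI in 2.30% and 3.93% of cells. *Ms4a3* had 13509 and 13592 UMIs, in 19% and 31.2% of cells. *Ms4a4c* had 794 and 1117 UMIs (5.66% and 14.3% of cells). *Ms4a6b* had 558 and 889 UMIs (5.65% and 13.9%), and *Ms4a6c* had 4600 and 6028 UMIs (12.3% and 25.6%). All 5 shares were higher in Cko, but the libraries differed in make-up, with 1866 erythroid-like cells of 6271 in WT and 345 of 3662 in Cko, so the values below are given within clusters. There, a level is the gene's UMIs scaled to 1000000 UMIs of the same cells (CPM). Levels are set side by side for 1 gene at a time, since 3′ counts are not scaled between genes.

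**Figure D1:**
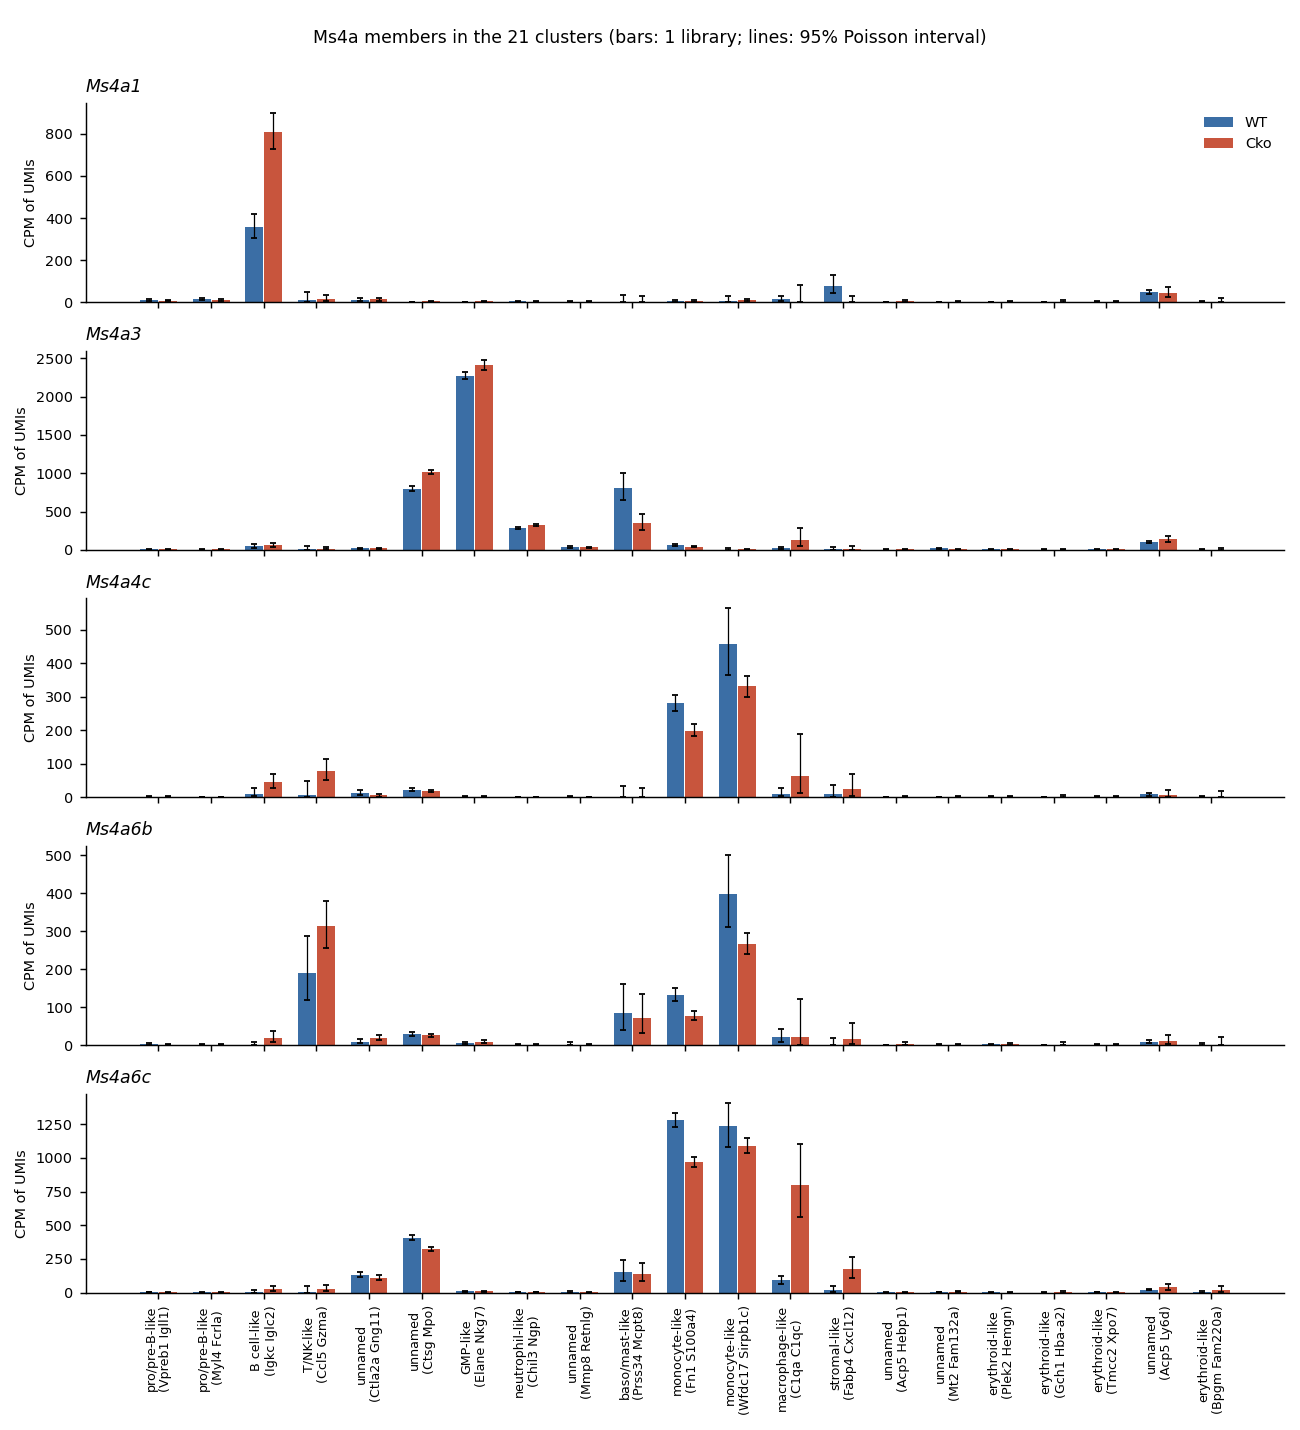
Level of each of the 5 Ms4a genes (CPM of UMIs, linear axis) in the 21 clusters, WT in blue and Cko in red, with 95% Poisson intervals for counting error as lines; each bar is 1 library. Ms4a1 stands out in the B cell-like cluster (359 in WT, 810 in Cko), Ms4a3 in the GMP-like cluster (2271 and 2410), and Ms4a4c, Ms4a6b and Ms4a6c in the monocyte-like clusters, Ms4a6b also in the T and NK cell-like cluster.

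*Ms4a1* marked the cluster of immature and mature B cell-like cells, led by *Igkc*, *Iglc2* and *Ighm*. In the 69 WT cells it had 153 UMIs, a level of 359 CPM (304 to 420). In the 75 Cko cells it had 342 UMIs, a level of 810 CPM (727 to 901). The Cko level was 2.26 times the WT level (1.86 to 2.75), a log2 ratio of 1.18. That difference went past 1.5-fold, as did 21.0% of the 896 genes with at least 100 UMIs in this cluster (12.1% higher in Cko and 8.93% lower). At an equal depth of 3000 UMIs per cell, *Ms4a1* was found in 37.7% of WT cells (26.3 to 50.2) and 60.0% of Cko cells (48.0 to 71.1). In erythroid-like cells, which should lack CD20, it was found at that depth in 0.375% of WT cells and in 0 of 345 Cko cells, which allows a share of up to 0.870%.

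The B cell-like cluster was not made of B cells alone. Scored cell by cell with the same markers, 33 WT and 48 Cko cells scored highest as immature and mature B cells, and 28 and 22 as neutrophils. In the B-scoring cells *Ms4a1* stood at 865 CPM (731 to 1018) in WT and 1313 (1171 to 1469) in Cko. The ratio was then 1.52 (1.24 to 1.86), a log2 ratio of 0.60, smaller than in the whole cluster. It fell below 1.5-fold under a finer clustering, at a resolution of 1.2 (log2 ratio 0.50), and with a class given to each cell by its score (0.55). In the neutrophil-scoring cells *Ms4a1* stood at 20.1 CPM in WT (4 UMIs) and 220 CPM in Cko (34 UMIs).

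*Ms4a1* followed *Cd74*, the invariant chain of MHC class II, which antigen-presenting cells such as B cells make. This split, like those by other genes below, was made in cells thinned to 3000 UMIs, where each cell counts alike, so its CPM are not on the same footing as the levels over all UMIs of a cluster. Cells with a *Cd74* UMI numbered 38 in WT and 62 in Cko, and *Ms4a1* stood in them at 816 CPM (658 to 999) and 1124 CPM (976 to 1287). Cells without one numbered 31 and 13, with 0 and 1 *Ms4a1* UMIs. The thinned cells with *Cd74* held 93 *Ms4a1* UMIs in WT and 209 in Cko.

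Earlier B cells had little *Ms4a1*. In the pro-B and pre-B cell-like cells, 780 in WT and 541 in Cko, it stood at 12.1 and 9.10 CPM. Cells of the WT outside the B cell-like cluster held more of the gene's UMIs than those of the Cko, since that cluster held 36.9% of all *Ms4a1* UMIs in WT and 65.0% in Cko. In WT the next largest portion, 22.4%, was in an unnamed cluster led by *Acp5*, *Ly6d* and *Retnlg*, where 59 of 203 WT and 12 of 29 Cko cells were called doublets and hemoglobin genes made up at least 1% of the UMIs in 191 and 23 cells. *Ms4a1* stood at 47.1 CPM in WT and 45.2 in Cko there. After thinning, the WT cells of this cluster with a UMI of *Cd79a*, a chain of the B cell receptor, had 158 CPM, against 8.13 CPM in those without. A level of 77.9 CPM in the WT stromal and endothelial-like cells came from 15 UMIs in 1 cell.

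Of 17 genes of the B cell receptor and its co-receptors, 8 had at least 100 UMIs in the B cell-like cluster. Past 1.5-fold, 3 were higher in Cko and 2 lower, with a median log2 ratio of 0.45, against 0.02 over all 896 genes. *Cd37*, a tetraspanin of B cells, went from 420 CPM in WT to 810 in Cko. *Cd79a*, which with *Cd79b* signals for the receptor, went from 1003 to 1791 CPM, and *Cd79b* from 799 to 1445. Both immunoglobulin genes measured from this list moved the other way. *Ighm*, the heavy chain of IgM, fell from 10272 CPM in WT to 517 in Cko, and *Igkc*, the kappa light chain, from 17556 to 2184. Few WT cells held most of the *Igkc*: the pair of cells with the most had 2403 and 2356 of 7489 UMIs, while the highest Cko cell had 49 of 922. Without the highest cell of each library, *Igkc* had 5086 UMIs in WT, 2356 of them in the second cell, and 873 in Cko. *Ighm* without its highest cell had 2950 and 207, and the second WT cell held 1106 of the 2950. All 6 measured cell cycle genes of 12 were lower in Cko, with a median log2 ratio of -1.15. Whether these mixtures of cells have a part in the *Ms4a1* ratio was not tested.

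*Ms4a3* was highest in the GMP-like cells, led by *Elane*, *Nkg7* and *Prss57*, which encode or accompany the proteases of primary granules. In the 328 WT cells it had 8804 UMIs, a level of 2271 CPM (2223 to 2318). In the 179 Cko cells it had 5735 UMIs, a level of 2410 CPM (2348 to 2473). The ratio of Cko to WT was 1.06 (1.03 to 1.10), below 1.5-fold, which 7.74% of 4123 genes of these cells passed (2.86% higher in Cko and 4.88% lower). At 3000 UMIs per cell, 98.8% of WT cells and 99.4% of Cko cells had a *Ms4a3* UMI, with a median of 7 UMIs per cell in both. The single cells ranged from 0 to 45 UMIs in WT and up to 27 in Cko. Among erythroid-like cells the share with a UMI was 1.61% and 1.45%.

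This value changed with the clustering. When each library was clustered on its own, the class took in 369 WT and 531 Cko cells, and the log2 ratio was -0.65 instead of 0.09. The class was then unlike in make-up. In Cko it joined a cluster led by *Elane* (227 cells) with another led by *Ctsg*, *Mpo* and *Cd34* (304 cells). In WT it was a cluster led by *Elane* alone, and a cluster of 176 cells led by *Emb*, *Mpo* and *Lgals1* was unnamed. In the joint clustering, the cluster next to the GMP-like one was unnamed and led by *Ctsg*, *Mpo* and *Cd34*. It held 262 WT and 305 Cko cells. CD34 is among the surface markers by which the study defined GMPs. *Ms4a3* stood there at 799 CPM (770 to 829) in WT and 1014 CPM (988 to 1041) in Cko, a ratio of 1.27 (1.21 to 1.33), and 6.33% of 4898 genes passed 1.5-fold (2.49% higher in Cko and 3.84% lower). Of all *Ms4a3* UMIs in WT, 65.2% were in the GMP-like cluster and 20.9% in this one, while in Cko the shares were 42.2% and 41.0%.

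Within the thinned cells of the *Ctsg* cluster, the excess of *Ms4a3* in Cko was in cells without *Irf8*, the factor that turns progenitors toward monocytes and dendritic cells. Cells without an *Irf8* UMI, 98 in WT and 143 in Cko, had 830 CPM (729 to 941) and 1410 CPM (1300 to 1527) of *Ms4a3*. Cells with one, 164 and 162, had 711 CPM (639 to 790) and 636 CPM (567 to 711). *Ms4a6c* had the opposite layout there. It stood at 204 CPM in WT and 133 in Cko without *Irf8*, and at 545 CPM in both with *Irf8*.

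*Ms4a3* was lower in clusters with later markers of neutrophil maturation. In the thinned GMP-like cells without *Camp*, a gene of secondary granules, it stood at 2953 CPM in WT and 2902 in Cko, and in those with *Camp* at 2151 and 2442, with intervals that overlapped in Cko. In the immature neutrophil-like cells, led by *Chil3*, *Ngp* and *Camp*, it stood at 286 CPM (268 to 304) in 476 WT cells and 319 CPM (305 to 334) in 636 Cko cells. The ratio of 1.12 (1.03 to 1.21) was below 1.5-fold, which 5.88% of the genes there passed (3.66% higher in Cko and 2.23% lower). After thinning, those of them without *Fcnb*, an early lectin gene, had 63.5 and 82.4 CPM, and those with it 264 and 319. In the cluster led by *Mmp8*, *Retnlg* and *Ly6g*, genes of late neutrophils, *Ms4a3* was down to 37.2 CPM in 171 WT cells and 30.8 CPM in 551 Cko cells.

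**Figure D2:**
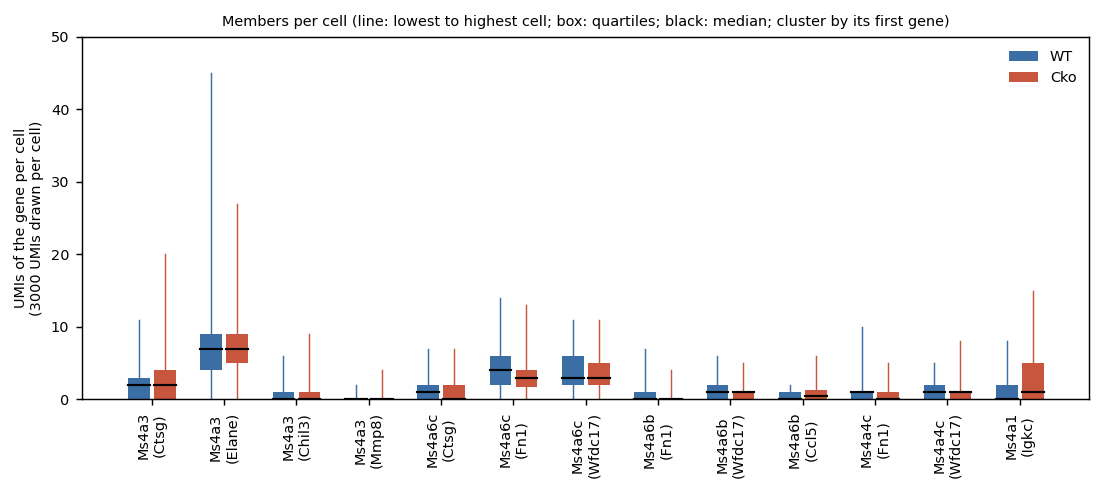
UMIs of a member per cell after each cell was thinned to 3000 UMIs (vertical axis, linear), for clusters named by their first leading gene, WT in blue and Cko in red; the box spans the cells from the lower to the upper quartile, the black line is the median and the thin line runs from the lowest to the highest cell. The median of Ms4a3 in the GMP-like (Elane) cluster is 7 in both libraries, and that of Ms4a6c in the Fn1 cluster is 4 in WT and 3 in Cko.

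Basophil and mast cell-like cells, led by *Prss34*, *Mcpt8* and *Cpa3*, were the other cells rich in *Ms4a3*. The 16 WT cells had 86 UMIs, 811 CPM (649 to 1002), and the 21 Cko cells 45 UMIs, 352 CPM (257 to 471). The ratio was 0.434 (0.296 to 0.630), in the direction opposite to that in the *Ctsg* cluster. All of these cells had a UMI of *Ms4a2*, the beta chain of the IgE receptor and a neighbor of *Ms4a3* on the chromosome. At 3000 UMIs per cell, 12 of the 16 WT cells and 9 of the 21 Cko cells had both genes. *Ms4a2* stood at 1094 CPM in WT and 932 in Cko, a ratio of 0.851 (0.654 to 1.11).

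Of the 11 granule genes expressed by granulocyte progenitors, all were measured in the GMP-like cells. None was higher in Cko past 1.5-fold and 1 was lower, *Nkg7*, with a log2 ratio of -0.67, and the median was -0.00, against -0.04 over all genes. None of the 12 cell cycle genes passed 1.5-fold there. In the *Ctsg* cluster the same 11 granule genes had a median log2 ratio of 0.41, with 1 higher (*Prss57*, 0.64) and 1 lower (*Ctsc*, -0.70), against -0.08 over all genes. In that cluster the *Ms4a3* value, 0.34, thus lay near the median of the granule genes.

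Monocyte-like cells formed a pair of clusters. The first, led by *Fn1*, *S100a4* and *Lgals3*, held 284 WT and 276 Cko cells. The second, led by *Wfdc17*, *Sirpb1c* and *H2-Aa*, held 44 WT cells and 278 Cko cells, of which 20 and 234 scored highest as monocytes and 17 and 26 as conventional dendritic cells. In the second, 1 of the 12 cell cycle genes and 1727 of all genes reached 100 UMIs, against 11 and 3833 in the first. The cells of the second had fewer UMIs in both libraries, so these counts are no measure of cell cycling. Because the clusters took such different parts of the 2 libraries, each member is given in each cluster.

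*Ms4a4c* was found mostly in these clusters, which held 78.1% of its UMIs in WT and 83.9% in Cko. In the *Fn1* cluster it had 536 UMIs in WT, 280 CPM (257 to 305), and 490 UMIs in Cko, 199 CPM (182 to 218). In the *Wfdc17* cluster it had 84 UMIs in WT, 457 CPM (364 to 565), and 447 in Cko, 331 CPM (301 to 363). The ratios of Cko to WT were 0.711 (0.628 to 0.805) and 0.725 (0.573 to 0.926). In each library the *Wfdc17* cluster had more *Ms4a4c* than the *Fn1* cluster, and the intervals did not overlap.

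*Ms4a6b* differed more between the monocyte clusters. In the *Fn1* cluster it had 254 UMIs in WT, 133 CPM (117 to 150), and 189 in Cko, 76.8 CPM (66.3 to 88.6). In the *Wfdc17* cluster it had 73 UMIs in WT, 397 CPM (311 to 499), and 360 in Cko, 267 CPM (240 to 296). The ratios of Cko to WT were 0.579 (0.477 to 0.701) and 0.672 (0.521 to 0.876).

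*Ms4a6c* was found in nearly every monocyte-like cell. In the *Fn1* cluster it had 2452 UMIs in WT, 1282 CPM (1232 to 1334), and 2385 in Cko, 970 CPM (931 to 1009). In the *Wfdc17* cluster it had 227 UMIs in WT, 1234 CPM (1079 to 1405), and 1471 in Cko, 1089 CPM (1034 to 1146). The ratios were 0.756 (0.715 to 0.801) and 0.883 (0.767 to 1.02), and the second interval included 1. Unlike *Ms4a4c* and *Ms4a6b*, *Ms4a6c* did not differ between the clusters beyond counting error in WT. At 3000 UMIs per cell it was found in 94.7% of WT and 92.4% of Cko cells of the *Fn1* cluster, and in 0.643% and 0.870% of erythroid-like cells.

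When both monocyte clusters were pooled, the ratios of *Ms4a4c* and *Ms4a6b* lay closer to 1 than in either cluster, and that of *Ms4a6c* lay between its values in the 2 clusters. The pooled ratio was 0.832 (0.751 to 0.922) for *Ms4a4c*, with 296 CPM in WT and 246 in Cko. For *Ms4a6b* the pooled levels were 156 and 144 CPM, and the ratio of 0.924 (0.804 to 1.06) included 1, so that the lower level found in each cluster did not show in the pooled value. For *Ms4a6c* the pooled levels were 1278 and 1012 CPM, a ratio of 0.792 (0.754 to 0.832).

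In the *Wfdc17* cells that scored highest as monocytes, 20 in WT, the ratio of *Ms4a4c* was 0.604 (0.440 to 0.848), with 596 CPM in WT and 360 in Cko. That of *Ms4a6b* was 0.723 (0.494 to 1.10), with 402 and 291 CPM, and its interval included 1, unlike in the whole cluster. For *Ms4a6c* the ratio was 0.942 (0.758 to 1.18), with 1207 and 1137 CPM. The part of the dendritic-scoring cells in the values of the whole cluster was not tested.

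**Figure D3:**
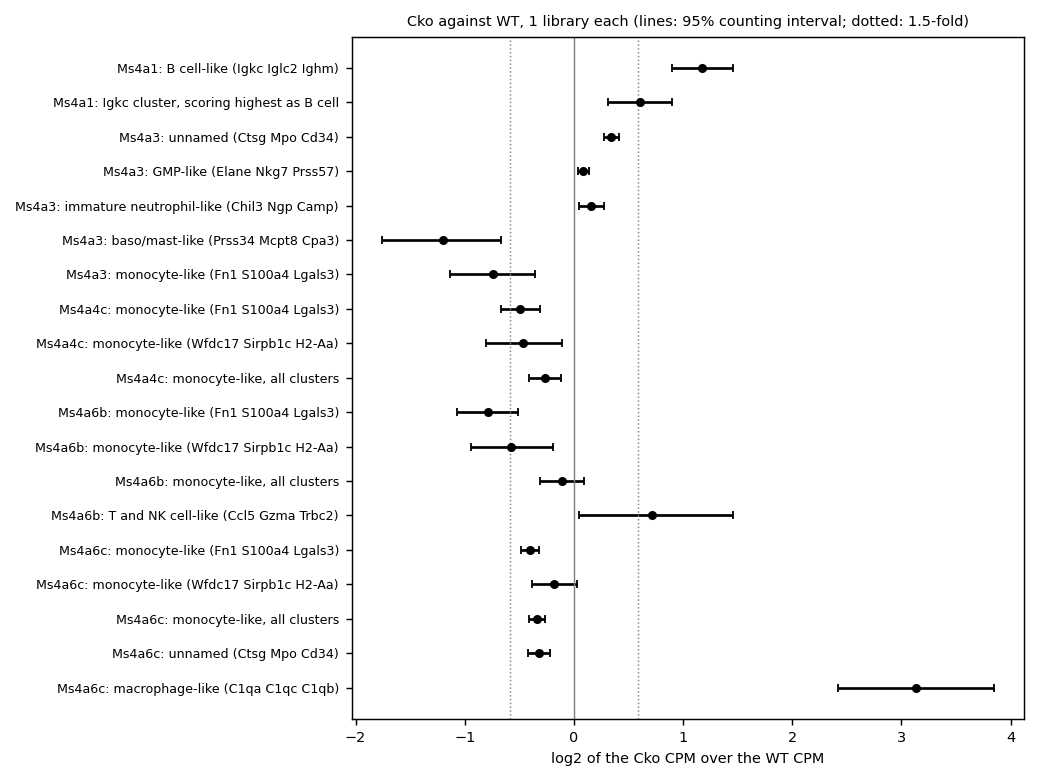
Log2 of the Cko level over the WT level of the members in the cells named at the left, with 95% intervals for counting error as lines, a solid line at equality and dotted lines at 1.5-fold; each point compares 1 library with 1 library. Ms4a1 in B cell-like cells (1.18), Ms4a6b in T and NK cell-like cells (0.72) and Ms4a6c in the 59 macrophage-like cells (3.13) lie to the right, while the monocyte values of Ms4a4c, Ms4a6b and Ms4a6c lie to the left of equality.

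Of the 4 members with at least 100 UMIs in the *Fn1* cluster, 2 were lower in Cko past 1.5-fold, *Ms4a6b* (log2 ratio -0.79) and *Ms4a3* (-0.74), while 8.53% of 3833 genes passed it (3.29% higher in Cko and 5.24% lower). *Ms4a3* in this cluster had 129 UMIs in WT, 67.4 CPM, and 99 in Cko, 40.3 CPM, and in the cells that scored highest as monocytes the levels were 41.6 and 35.7 CPM. None of the 3 members measured in the *Wfdc17* cluster passed 1.5-fold, where 23.6% of 1727 genes did (208 of them higher in Cko and 200 lower). With both clusters pooled, 1 of 4 did, *Ms4a3*, at a log2 ratio of -1.12, where 14.8% of 4287 genes did (5.62% higher in Cko and 9.19% lower). The median log2 ratio of all genes was -0.07, -0.00 and -0.12 in these 3 comparisons. Of the 11 granule genes of granulocyte progenitors, 7 were measured in the *Fn1* cluster and in the pool. In the *Fn1* cluster none was higher past 1.5-fold and 1 was lower, *Ctsc* at -0.81, with a median log2 ratio of -0.41. With both clusters pooled none was higher and 4 were lower, with a median of -0.70, and *Mpo* was lowest, at 447 CPM in WT and 223 in Cko. Their part in the *Ms4a3* values was not tested.

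Receptor genes of monocytes were set beside the members. Of 15 such genes, 12 were measured in the *Fn1* cluster and none passed 1.5-fold, from *Csf1r*, the receptor of the growth factor M-CSF, at -0.51 to *Cd300a*, an inhibitory receptor, at 0.43, with a median log2 ratio of -0.06. Of 13 in the *Wfdc17* cluster, 2 were higher in Cko and none was lower, from *Cx3cr1*, the fractalkine receptor, at -0.46 to *Itgam*, an integrin chain, at 0.92. With both pooled, 5 of 14 were higher and none lower, from *Ly6c2* at -0.41 to *Clec4a3* at 1.13.

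Within the thinned cells of the *Fn1* cluster, those that had the granule protease gene *Elane* had less *Ms4a4c* in both libraries, and less *Ms4a6b* and *Ms4a6c* in WT. *Ms4a4c* stood at 428 CPM (370 to 492) in the 152 WT cells without *Elane* and 222 CPM (178 to 274) in the 132 with it. In Cko the levels were 276 CPM (233 to 325) in 174 cells without and 127 CPM (90.6 to 174) in 102 cells with it. *Ms4a6b* went from 197 to 106 CPM in WT and from 102 to 58.8 CPM in Cko. *Ms4a6c* went from 1452 to 1194 CPM in WT and from 1044 to 971 CPM in Cko. The Cko intervals of *Ms4a6b* and of *Ms4a6c* overlapped. The Cko cells without *Elane* had less of each gene than the WT cells without it. The part of the cells with *Elane* in the ratios of this cluster was not tested.

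Thinned cells with the proliferation gene *Mki67* also had less *Ms4a6b* in the *Fn1* cluster. It stood at 208 CPM (166 to 257) without and 105 CPM (76.9 to 140) with *Mki67* in WT, and at 108 CPM (78.4 to 145) and 64.3 CPM (42.4 to 93.5) in Cko. The 2 Cko intervals overlapped. Among *Wfdc17* cells, those with *H2-Aa*, an MHC class II gene, did not stand apart from those without it in *Ms4a6c*, with 1222 and 1310 CPM in WT and 1193 and 1100 CPM in Cko.

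The 3 genes were often read in the same monocyte. At 3000 UMIs per cell, all 3 were found in 21.5% of WT cells (16.8 to 26.7) and 10.5% of Cko cells (7.15 to 14.7) of the *Fn1* cluster. *Ms4a6c* was the only one found in 31.0% (25.7 to 36.7) and 43.8% (37.9 to 49.9). In the *Wfdc17* cluster all 3 were found in 22 of 44 WT cells (34.6% to 65.4%) and 34.5% of 278 Cko cells (29.0 to 40.4). Cells with *Ms4a4c* or *Ms4a6b* that lacked *Ms4a6c* were rare. None of the 3 was found in 3.52% and 4.35% of the *Fn1* cells, and in 0 of 44 WT *Wfdc17* cells, which allows up to 6.82%, and 2.88% of the Cko ones. These shares follow the levels, since a gene with few UMIs is missed more often.

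**Figure D4:**
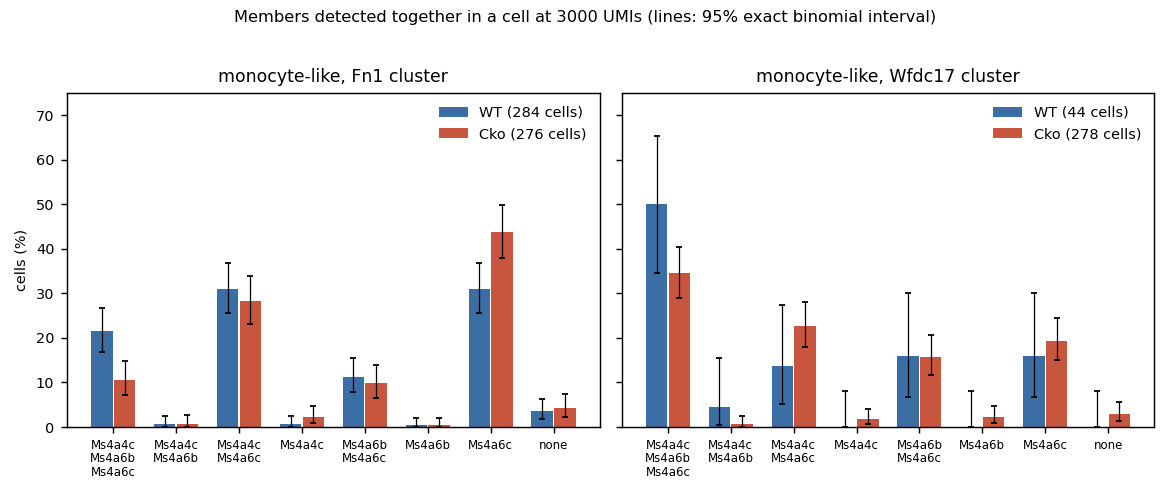
Share of cells (%, linear axis from 0) of the Fn1 (left) and Wfdc17 (right) monocyte-like clusters in which the named members, and no other of the 3, had a UMI at 3000 UMIs per cell, WT in blue and Cko in red, with exact 95% binomial intervals for counting error. All 3 were found together in 21.5% of WT and 10.5% of Cko Fn1 cells, and in 22 of 44 WT and 34.5% of Cko Wfdc17 cells.

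*Ms4a6c* reached back into progenitors, as *Ms4a3* reached forward. In the *Ctsg* cluster *Ms4a6c* had 1445 UMIs in WT, 408 CPM (387 to 430), and 1794 in Cko, 327 CPM (312 to 342), a ratio of 0.801 (0.747 to 0.859). *Ms4a4c* and *Ms4a6b* were low there, at 23.2 and 19.1 CPM and at 28.2 and 25.5 CPM in WT and Cko. None of the 4 members measured in this cluster passed 1.5-fold. Both *Ms4a3* and *Ms4a6c* were found in 45.4% of WT cells (39.3 to 51.7) and 35.1% of Cko cells (29.7 to 40.7) of the cluster. *Ms4a3* without *Ms4a6c* was found in 26.3% and 38.7%, and *Ms4a6c* without *Ms4a3* in 17.2% and 14.8%. In the GMP-like cells *Ms4a6c* was almost absent, at 10.3 and 10.1 CPM.

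*Ms4a6b* was the member of T cells. The T and NK cell-like cluster, led by *Ccl5*, *Gzma* and *Trbc2*, held 18 WT and 64 Cko cells. *Ms4a6b* had 22 UMIs in WT, 190 CPM (119 to 288), and 103 in Cko, 313 CPM (256 to 380), a ratio of 1.65 (1.03 to 2.74). After thinning, cells with a UMI of *Cd3d*, a chain of the T cell receptor complex, had 300 CPM in WT (10 cells) and 426 CPM (321 to 555) in Cko (43 cells). Without it, 8 WT cells had 0 UMIs and 21 Cko cells had 79.4 CPM (25.8 to 185). Among the thinned Cko cells the level was also higher with *Cd8b1*, a chain of the CD8 co-receptor, at 469 CPM (342 to 627) in 32 cells against 156 CPM (87.5 to 258) in the other 32.

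*Ms4a4b*, a close relative of *Ms4a4c* known from T cells, shared these cells with *Ms4a6b*. All 6 WT cells in which *Ms4a6b* was found at 3000 UMIs also had *Ms4a4b*, and so did 31 of 32 Cko cells. Most cells of the cluster had *Ms4a4b* in any case. It was found without *Ms4a6b* in 11 of 18 WT and 27 of 64 Cko cells, and neither gene in 1 and 5. The overlap therefore says little about a link between the genes. *Ms4a4b* stood at 1722 CPM in WT and 1542 in Cko. *Ms4a4c* itself had 1 UMI in the WT cells and 26 in the Cko cells, 79.1 CPM (51.7 to 116). The part of reads from *Ms4a4b*, with which *Ms4a4c* shares some 3′ sequence, was not tested.

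*Ms4a6c* was also found in less frequent myeloid cells. The class called macrophage-like, with *C1qa*, *C1qb* and *C1qc* as leading genes of complement, had 50 cells in WT and 9 in Cko. *Ms4a6c* had 34 UMIs in the WT cells, 91.0 CPM (63.0 to 127), and 37 in the Cko cells, 797 CPM (561 to 1099), a ratio of 8.76 (5.35 to 14.4). The clusters were unlike in make-up, with at least 1% of hemoglobin UMIs in 37 of the 50 WT cells and 2 of the 9 Cko cells. In the thinned WT cells with *Cd74* the level was 202 CPM (118 to 324), and in those without it 15.9 CPM (0.402 to 88.4). The part of hemoglobin-bearing cells in this ratio was not tested. In the unnamed cluster led by *Ctla2a*, *Gng11* and *Plek*, *Ms4a6c* was higher in cells with *Siglech*, a receptor of plasmacytoid dendritic cells. After thinning it stood there at 333 CPM (233 to 461) in WT and 283 CPM (196 to 396) in Cko, against 119 and 131 CPM without *Siglech*.

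For each member the levels could be ordered over the 21 clusters of a library. *Ms4a1* was highest in the B cell-like cluster in both, beyond the intervals of the next cluster. The order of *Ms4a3* began with the GMP-like cluster in both. The basophil and mast cell-like cells came second in WT, where their interval overlapped that of the *Ctsg* cluster, and after the *Ctsg* cluster in Cko. *Ms4a4c* had the order *Wfdc17* then *Fn1* cluster in both libraries. *Ms4a6b* led with the *Wfdc17* cluster in WT and with the T and NK cell-like cluster in Cko, where the 2 overlapped. *Ms4a6c* led with the *Fn1* cluster in WT and the *Wfdc17* cluster in Cko, overlapping in WT only.

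The genes most like each member were taken over the 10 named classes, as the smaller of the WT and Cko Pearson correlations of log2(CPM + 10) among 5655 genes. The classes of a library share its depth and free RNA, so these values are descriptions. Unnamed clusters were left out, among them the *Ctsg* cluster and that led by *Mmp8*, *Retnlg* and *Ly6g*. In the latter *Ms4a1* stood at only 1.43 CPM in WT and 1.54 in Cko. The genes most like *Ms4a1* were *Ly6d* (0.88), *Igkc* (0.87), *Faim3* (0.86), *Iglc2* (0.85) and *Retnlg* (0.83), the last a neutrophil gene. For *Ms4a3* they were *1700020L24Rik* (0.93), *Alas1* (0.91), *Mpo* (0.90), *Prss57* (0.89) and *Clec12a* (0.87). For *Ms4a4c* they were *Zbp1* (0.87), *Pld4* (0.84), *Ap1s2* (0.84), *Samhd1* (0.81) and *F13a1* (0.80). *Ms4a6b* was most like *Arl4c* (0.89), *Ccr2* (0.88), *Selplg* (0.88), *Itgb7* (0.85) and *Fxyd5* (0.84), of which *Ccr2*, *Selplg* and *Itgb7* encode proteins of leukocyte homing. *Ms4a6c* was most like *Gm2a* (0.87), *Ptplad2* (0.85), its neighbor *Ms4a6d* (0.84), *Rassf4* (0.84) and *Atp6v1g1* (0.83). Between members the value was 0.72 for *Ms4a4c* and *Ms4a6c*, 0.54 for *Ms4a6b* and *Ms4a6c*, and 0.51 for *Ms4a4c* and *Ms4a6b*.

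Of 15 other genes of the family, 6 were listed in both libraries and *Ms4a8a* in Cko alone, and the other 8 were listed in neither. *Ms4a6d* had 42.9 CPM in WT and 36.2 in Cko in the *Fn1* cluster and 87.0 and 94.0 in the *Wfdc17* cluster, with intervals of both ratios that included 1. *Ms4a7*, known from macrophages, stood at 222 and 431 CPM in the macrophage-like cells, a ratio of 1.94 (1.13 to 3.19). *Ms4a8a* stood at 44.3 CPM in the *Fn1* and 150 CPM in the *Wfdc17* cells of the Cko. *Tmem176a* and *Tmem176b*, relatives outside the Ms4a cluster of genes, were highest in the stromal and endothelial-like cells, at 597 and 784 CPM in WT and 598 and 845 CPM in Cko. None of the other family members measured in the monocyte comparisons passed 1.5-fold.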

How the data were processed

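BMCs of 1 WT and 1 Cko library were made with the Chromium Single Cell 3′ v2 kit and processed by the authors with Cell Ranger on GRCm38 (submitters' processing notes; the version is not given in the sources used here). The deposited values are raw UMI counts per gene and cell barcode. In the deposited tables every listed gene reaches at least 4 UMIs in some cell, so a gene that is not listed may still have been present at a low level. The authors' own clusters were not used here.

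Barcodes with at least 200 genes were kept. Both libraries were clustered together in Seurat 5.3.0 (R 4.3.3; 2000 variable genes, 20 principal components, 20 neighbors, resolution 0.8), without Ms4a and Stfa genes. A cluster was named from at least 3 markers among its leading genes where at least 50% of its cells scored for the name, a limit set after seeing the data. Doublets (Scrublet in scanpy 1.11.5) made up 1.95% and 1.04% of cells and were kept. Counts were summed per cluster and library, as CPM of all UMIs of these cells with exact Poisson intervals, and ratios have exact conditional intervals (scipy 1.17.1). Shares and splits by 1 gene use cells thinned to 3000 UMIs, which left out 4 WT and 0 Cko cells, with exact binomial intervals. All intervals are at 95% and cover counting error only. A share of 0 is given with the limit that 3 counts would set. A gene was counted as higher or lower past 1.5-fold with at least 100 UMIs over both libraries. On counts simulated for the monocyte-like comparison, 95.5% of 2473 intervals held the true ratio. These counts were drawn from the Poisson model that the intervals assume. This checked the computation only, and not variation between cells or mice.

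The 5 members were followed in every class. Named besides them were the listed family members, the 5 genes most like each member, and the highest and lowest gene of each list. The members, markers and lists were chosen with earlier results of these data known. Splits by 1 gene, cells grouped by score, motifs and the immunoglobulin genes were chosen after their values were seen. The alternatives tried were other clusterings, resolutions of 0.4 and 1.2, a class per cell, doublets left out, at least 500 genes per cell, and other scalings. No column or barcode was left without a library.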

Additional observations from a re-analysis of the deposited data

Results flagged for a closer look

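For 3 members, the Cko level was above the WT level in some clusters and below it in others, in each case with at least 20 UMIs per library and a counting interval that excluded equality. Of 5571 genes with that many UMIs in each library in at least 2 clusters, 1274 (22.9%) met the same rule, and nothing particular to the members is read from it. The differences between clusters were not tested, because there is 1 library per genotype. For Ms4a3 the log2 ratio was 0.34 in the Ctsg cluster, 0.16 in immature neutrophil-like cells and 0.09 in GMP-like cells, and -0.74 in the Fn1 monocyte-like cluster and -1.20 in basophil and mast cell-like cells. For Ms4a6b it was 0.72 in T and NK cell-like cells, and -0.79 and -0.57 in the Fn1 and Wfdc17 monocyte-like clusters. For Ms4a6c it was 3.13 in macrophage-like cells, of which 9 were in Cko, and -0.40 and -0.32 in the Fn1 monocyte-like and Ctsg clusters.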

How the results depend on the processing

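The log2 ratio of Cko to WT was recomputed for the 5 members in their own class under 60 alternatives, of which 47 stayed within the counting interval. Some of these 47 left the cell and UMI counts of the class unchanged, and so gave the same value. They were at least 500 genes per cell for all 5 members, and a resolution of 0.4 for Ms4a1. A resolution of 1.2 was another, for Ms4a4c, Ms4a6b and Ms4a6c. The alternatives outside the interval moved as follows. For Ms4a1 in B cell-like cells, 1.18 became 0.50 at a resolution of 1.2, 0.55 with a class per cell and 0.60 in the cells scoring highest as B cells, of which the first 2 are below 1.5-fold. Clustering the libraries apart gave no value, since no WT cluster could be named. For Ms4a3 in GMP-like cells, 0.09 became -0.65 with separate clusterings and -0.13 at a resolution of 0.4. It became -0.15 with Ms4a and Stfa genes kept in the clustering and -0.083 with a class per cell. With separate clusterings the class held a cluster led by Ctsg, Mpo and Cd34 in Cko, besides that led by Elane. In WT it held the Elane cluster alone. For Ms4a4c in both monocyte-like clusters, -0.27 became -0.49 in the Fn1 and -0.46 in the Wfdc17 cluster. For Ms4a6b, -0.11 became -0.79 and -0.57 in the same clusters. For Ms4a6c, -0.34 became -0.23 with a class per cell and -0.18 in the Wfdc17 cluster. All alternatives kept the direction for Ms4a1, Ms4a4c, Ms4a6b and Ms4a6c, and 7 of 11 did for Ms4a3. For Ms4a6b the direction says little, since the main interval (-0.31 to 0.088) included equality. Its value was -0.0076 with a class per cell and -0.029 with separate clusterings. The values for the clusters taken singly and for cells by score were chosen after seeing the data. The cause of these shifts was not tested. No paired analysis was possible because each genotype has 1 library, and no library could be left out. Precision is limited in small classes, such as the 9 macrophage-like cells in Cko and the 16 basophil and mast cell-like and 18 T and NK cell-like cells in WT.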
